A study of Mus musculus with 30 samples.

Results

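The cholinergic and motor neuron genes described here are 9 genes picked by name, Chat, Slc18a3, Slc5a7, Ache, Prph, Isl1, Nefh, Nefm and Nefl, of the 16995 genes with values in the intermediate laminae of the mouse cervical spinal cord. All 9 were in the table of values. The tissue came from adult C57BL/6J mice (C57BL/6 in the labels). The transcriptomic animals were all female, and no transgene or deletion is given for any of them. A photothrombotic stroke was made in the right sensorimotor cortex by Rose Bengal and illumination, and sham-operated animals were the controls. The study asked how the gene expression of the stroke-denervated gray matter (GM) changes while corticospinal tract (CST) fibers from the intact side grow into it. The groups were sham (5 animals) and 4 (4 animals), 7, 14, 28 and 42 dpi (days post injury, 5 animals each), so 29 animals had values of the 30 in the labels.

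Motor neurons lie in the ventral horn and send their axons out of the cord to muscle, and cholinergic interneurons lie more dorsally, in the intermediate gray matter. A cholinergic neuron makes acetylcholine with choline acetyltransferase (Chat), fills synaptic vesicles with it through the vesicular transporter Slc18a3 (VAChT), and takes choline back up through the high-affinity transporter Slc5a7. Acetylcholinesterase (Ache) breaks down the released transmitter and is made by many other neurons too. Peripherin (Prph) is an intermediate filament of neurons with axons in the periphery, Isl1 is a transcription factor that specifies motor neurons, and Nefh, Nefm and Nefl are the heavy, medium and light neurofilament chains that give large axons their width. The level of such a gene in a piece of bulk tissue depends on how many of these cells the piece holds and on how much RNA each makes, and fewer cells and less RNA per cell cannot be told apart here. The piece was trimmed by hand with a blade from the intermediate layer at C5/C6, and per the study's methods the place and size of each piece were scored and the spinal level was checked on neighbouring tissue, while the share of ventral horn in each was not tested here.

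Chat and Slc18a3 share 1 locus on chromosome 14. Slc18a3 (32462438 to 32464850, mm10, minus strand) lies inside Chat (32408203 to 32465909, minus strand), and the starts are 1059 bases apart. The 2 genes share 0 exonic bases, and 0 of the 2383 distinct 31-base words of Slc18a3 occur in the annotated transcripts of another gene. Slc18a3 lies in an intron of Chat on the same strand, and the libraries were made from ribo-depleted total RNA, so reads of unspliced Chat RNA over Slc18a3 cannot be told apart from those of Slc18a3. Slc5a7 is on chromosome 17 (54273594 to 54299034, minus strand) and Ache on chromosome 5 (137287519 to 137294466, plus strand). The promoters of these 4 genes, from 250 bases before to 50 after the start in RefSeq (GRCm38.p6), are printed 5′ to 3′ because Chat, Slc18a3 and Slc5a7 varied together between animals and Ache varied least. Capitals mark the GC box GGGCGG, on either strand.
Chat (chr14:32465860-32466159, minus strand): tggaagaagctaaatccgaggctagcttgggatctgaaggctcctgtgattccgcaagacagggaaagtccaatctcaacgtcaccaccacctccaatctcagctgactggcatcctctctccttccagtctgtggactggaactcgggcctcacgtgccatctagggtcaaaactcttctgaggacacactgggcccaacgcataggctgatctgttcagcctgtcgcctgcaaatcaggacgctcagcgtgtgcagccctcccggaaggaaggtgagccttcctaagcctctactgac
Slc18a3 (chr14:32464801-32465100, minus strand): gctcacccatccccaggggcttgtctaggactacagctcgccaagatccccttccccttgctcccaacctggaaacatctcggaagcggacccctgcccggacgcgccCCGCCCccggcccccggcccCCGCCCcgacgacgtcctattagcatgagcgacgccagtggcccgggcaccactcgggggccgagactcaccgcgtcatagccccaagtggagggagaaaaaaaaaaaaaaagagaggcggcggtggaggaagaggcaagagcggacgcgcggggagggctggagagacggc
Slc5a7 (chr17:54298985-54299284, minus strand): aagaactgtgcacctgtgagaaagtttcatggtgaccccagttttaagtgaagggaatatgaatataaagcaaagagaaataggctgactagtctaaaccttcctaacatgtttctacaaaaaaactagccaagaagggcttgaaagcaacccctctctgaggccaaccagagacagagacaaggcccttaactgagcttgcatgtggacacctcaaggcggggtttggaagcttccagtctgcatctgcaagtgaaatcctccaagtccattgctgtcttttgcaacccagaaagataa
Ache (chr5:137288004-137288303, plus strand): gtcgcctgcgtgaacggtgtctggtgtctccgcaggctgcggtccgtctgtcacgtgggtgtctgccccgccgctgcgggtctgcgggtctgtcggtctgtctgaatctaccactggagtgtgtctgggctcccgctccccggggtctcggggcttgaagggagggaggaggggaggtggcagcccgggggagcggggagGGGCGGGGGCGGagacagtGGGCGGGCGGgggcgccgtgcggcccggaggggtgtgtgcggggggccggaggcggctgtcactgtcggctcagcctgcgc

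The GC box was found 0 times in the Chat window, 2 times in Slc18a3, 0 times in Slc5a7 and 4 times in Ache, where pairs of boxes run into each other. Of all 32851 promoters of the same length, 35.7% hold it. The window of Slc18a3 lies within the Chat gene. The windows hold 55.7% (Chat), 67.0% (Slc18a3), 44.7% (Slc5a7) and 74.0% (Ache) G and C, against a median of 52.7% over all promoters. Promoters of Prph and Isl1 were also matched, 6 of the 9 genes in all. Neither the homeodomain core TAATTA, in 5.29% of all promoters, nor the cyclic AMP response element TGACGTCA, in 1.79%, occurs in these 6 windows. These are matches of letters and say nothing of binding.

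Prph is on chromosome 15 (99055174 to 99058978, plus strand), Isl1 on chromosome 13 (116298281 to 116309689, minus strand) and Nefh on chromosome 11 (4938754 to 4948064, minus strand). Nefl (68083863 to 68089095, plus strand) and Nefm (68082590 to 68124846, minus strand) lie on chromosome 14 and overlap on opposite strands over 1108 exonic bases. Of the 31-base words of Nefl, counted on both strands, 32.2% also occur in Nefm, and 18.8% of those of Nefm occur in Nefl. The library kit is not stated to keep the strand, so the split of reads between Nefm and Nefl is uncertain. All 9 genes are protein-coding in the GENCODE M21 annotation.

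The values are normalized CPM as deposited by the authors, rounded to 0.1, and the read depth behind them is unknown. Per animal, the median gene was at 10.2 to 11.2. The sum ran from 714597 to 2256910, in which 18S ribosomal RNA (Rn18s-rs5) ranged from 18295 to 817780. All 12 motor neuron markers on the list used here were above 0 in every animal. Of 5 Schwann cell markers 1 was in the table, Ncmap, at 0.9 to 2.6, and of 5 skeletal muscle genes 0. Per the study's methods, genes at low expression levels were excluded, so absence from the table can mean a low level and not none.

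Per kilobase of the longest coding transcript, the neurofilament chains had the highest levels in the sham group. Nefl was at 585 ± 111 (SD, n = 5), Nefh at 279.5 ± 57.2 and Nefm at 149 ± 36.9 normalized CPM per kilobase. Ache followed at 48.2 ± 3.62. The genes restricted to cholinergic or peripherally projecting neurons were lower, with Slc5a7 at 18.8 ± 9.37, Prph at 14.9 ± 8.83, Slc18a3 at 11.8 ± 6.48 and Chat at 8.05 ± 2.87 per kilobase. Isl1 was lowest, at 0.548 ± 0.215. The sham ranges of Slc5a7, Prph, Slc18a3 and Chat overlapped, so their order is within the spread between animals, while the ranges of Nefl, Nefh, Nefm, Ache, this set of 4 and Isl1 did not overlap. For Ache this holds with its longest coding transcript, of 2186 bases. Its longest transcript of any kind has 3687 bases, and the separation of Ache from Slc5a7 depends on which is used.

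Chat differed more between animals of 1 group than between groups. Its normalized CPM in the sham animals was 19.7 (A11-1), 19.9 (A11-4), 34.1 (A12-1), 28.2 (A12-2) and 13.1 (A12-3). At 4 dpi it was 50.6 (A10-1), 7.1 (A10-4), 13.1 (A9-2) and 16.7 (A9-4), so the highest animal was 7.13 times the lowest and both came from 1 unit of the labels, A10. At 7 dpi it was 28.4, 31.7, 11.6, 27.9 and 17.3. The sham group, which had no stroke, spanned 2.6-fold by itself, and the 7 dpi animals fell within nearly the same range. Values of 17.1, 29.2, 54.4, 23 and 33.8 were found at 14 dpi, and of 17.7, 31.8, 23.7, 36.6 and 23.1 at 28 dpi. At 42 dpi the values were 16.7, 13.8, 19.4, 16.4 and 40.3, the last in animal A3-4. Every stroke group overlapped the sham group.

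Slc18a3, the vesicular transporter, and Slc5a7, the choline transporter, followed the same animals. Slc18a3 was at 20, 22.4, 50.4, 38.1 and 11.3 in the sham animals (A11-1, A11-4, A12-1, A12-2, A12-3) and at 66.1, 5.4, 12 and 21.2 at 4 dpi (A10-1, A10-4, A9-2, A9-4). The 7 dpi animals had 26.7, 33.9, 11.4, 35.9 and 16.8, the 14 dpi animals 20.3, 40.7, 68.1, 20.6 and 41.6, the 28 dpi animals 20.1, 54, 28.3, 46.1 and 24.8, and the 42 dpi animals 16.2, 11.9, 19.8, 20.1 and 48.2. The animal highest in Chat was also highest in Slc18a3 in the sham, 4, 14 and 42 dpi groups, and the animal lowest in Chat was lowest in Slc18a3 in all 6 groups. Slc5a7 was at 80.8, 82, 173.1, 108.3 and 42 in the sham animals and at 188.4, 17.9, 41.3 and 55.7 at 4 dpi. At 14 dpi it was at 73.9, 118.4, 228.6, 87.1 and 151.6, and over all 29 animals it spanned 12.8-fold, from 17.9 to 228.6. Each group of both transporters overlapped the sham group.

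Prph, the peripherin gene, which is not part of acetylcholine metabolism, had the same spread. The sham animals had 18.4, 19, 52.8, 36 and 12.8, the 4 dpi animals 78.4, 6.4, 12.2 and 22.7, and the 7 dpi animals 24.9, 50.3, 12.3, 42.1 and 21.7. The 14 dpi animals had 21.8, 44.9, 81.4, 38.7 and 48, the 28 dpi animals 19.3, 41.7, 26.2, 34.3 and 17.6, and the 42 dpi animals 18.5, 12.9, 20.2, 22.1 and 42. Animal A10-1 was the highest of the 4 dpi group in all 9 genes and A10-4 the lowest in all 9. Animal A12-1 was likewise the highest sham animal in all 9 genes.

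**Figure D1:**
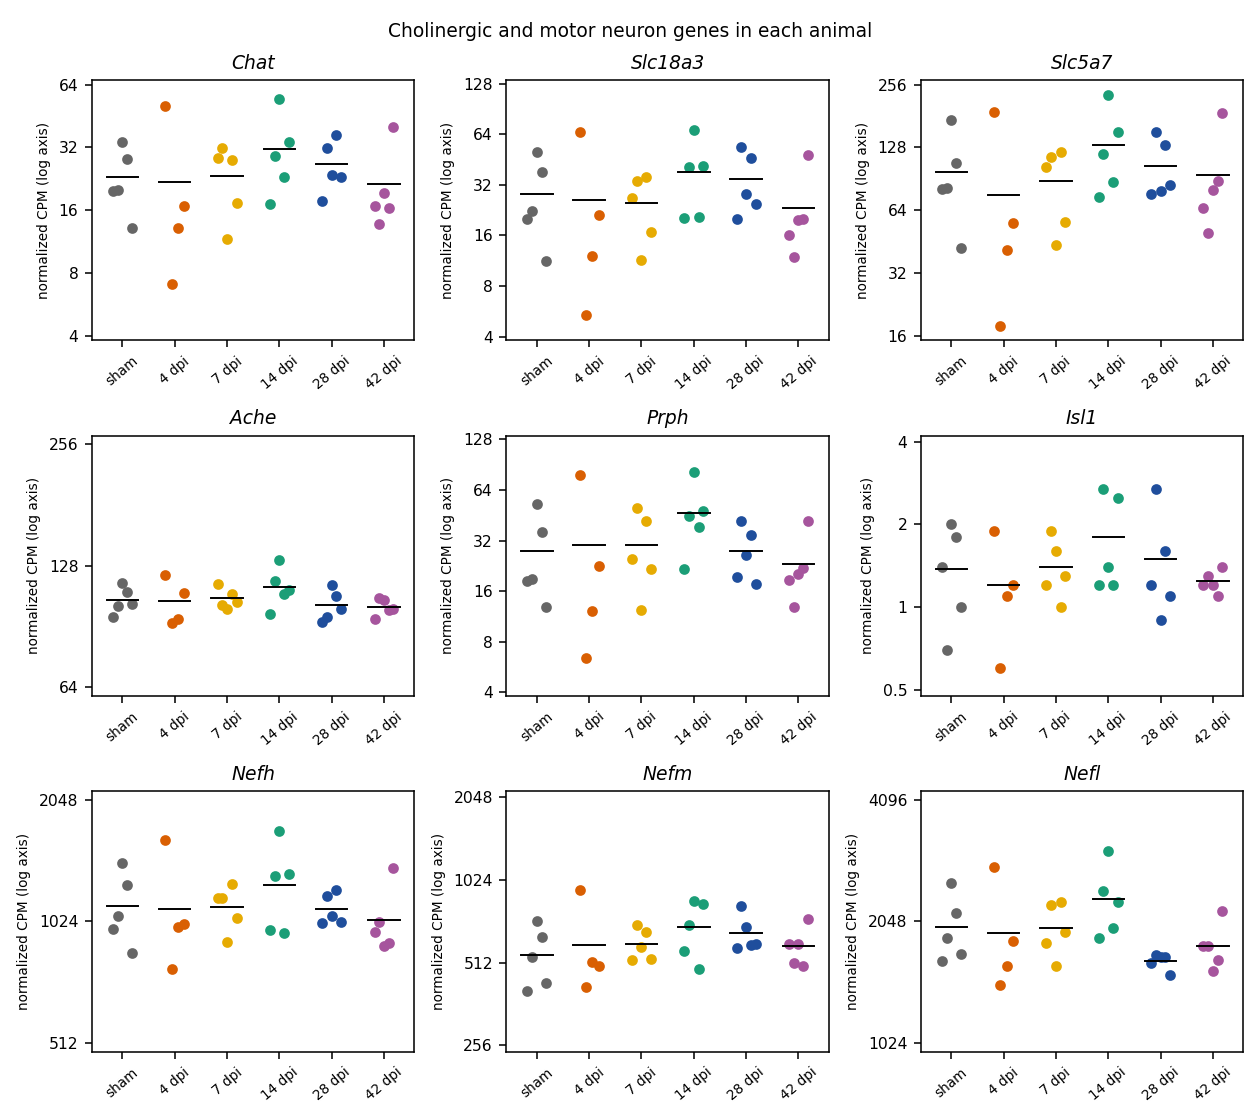
Normalized CPM of the 9 genes on a log axis whose range differs between panels, by group on the x axis, with 1 point per animal and a bar at the arithmetic mean. Chat, Slc18a3, Slc5a7 and Prph spread widely in every group while Ache stays between 92.1 and 132.1, every stroke group overlaps the sham group in all 9 genes, and for Nefl the 28 dpi animals all lie below the 14 dpi animals.

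Ache was the exception in spread. The sham animals had 95.5, 101.6, 115.8, 110.4 and 103.1, the 4 dpi animals 121.3, 92.1, 94.6 and 109.4, and the 14 dpi animals 97.3, 117.1, 132.1, 108.8 and 111.4. Over all 29 animals its highest value was 1.43 times its lowest, against 7.66 times for Chat, 12.6 for Slc18a3, 12.8 for Slc5a7 and 12.7 for Prph. The within-group SD of the log2 values was 0.13 for Ache, 0.66 for Chat, 0.86 for Slc18a3, 0.79 for Slc5a7 and 0.84 for Prph. As a description, of the 8862 genes with a mean value of at least 10, 58.7% had a larger SD than Ache, 0.474% a larger one than Chat and 0.259% a larger one than Slc18a3. Isl1 was too low for a close reading, with values of 1.4, 0.7, 2, 1.8 and 1 in the sham animals and 0.6 to 2.7 over all animals, where the rounding step is 0.1.

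The neurofilament chains varied less than the cholinergic genes. Nefh spanned 2.2-fold over the 29 animals, from 779.3 in A10-4 to 1717.6 in A5-4, Nefm 2.35-fold, from 402.8 to 945.3, and Nefl 2.15-fold, from 1426.3 to 3060.5. Nefh was at 981.9, 1056.1, 1430.5, 1258.2 and 855.2 in the sham animals and at 1626.3, 779.3, 990.5 and 1008.5 at 4 dpi. Nefm was at 402.8, 537.1, 725.3, 635.6 and 432 in the sham animals and at 945.3, 419.3, 517 and 497.2 at 4 dpi. The order of the animals was close to that for Chat, with a shallower slope. For 1 unit of log2 Chat, the log2 level within groups moved by 1.26 for Slc18a3, 1.16 for Slc5a7, 1.21 for Prph, 0.41 for Nefh, 0.39 for Nefm, 0.34 for Nefl, 0.30 for Isl1 and 0.13 for Ache.

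The relations between these genes were measured across the 29 animals on log2 values from which the group means had been subtracted, so that no difference between groups enters. Pearson's r of Chat was 0.974 with Slc18a3 (Spearman's rho 0.960), 0.976 with Slc5a7 (rho 0.957), 0.955 with Prph (rho 0.932) and 0.932 with Nefh (rho 0.886). It was 0.672 with Ache (rho 0.660) and 0.524 with Isl1 (rho 0.509). Of the neurofilament pairs, r was 0.856 for Nefh and Nefm (rho 0.820) and 0.851 for Nefm and Nefl (rho 0.810), the latter with the shared sequence described above. In a two-sided permutation test within groups, adjusted over 10 relations, Pearson's r had a raw p = 1e-05, the smallest that 100000 permutations can give, and an adjusted p = 1.67e-05 for the pairs other than Chat with Ache and Chat with Isl1. For Chat with Ache the permutation p was 0.00086 (adjusted 0.00123), and for Chat with Isl1 0.0099 (adjusted 0.0124). Spearman's rho had adjusted permutation p values of 2e-05 for Chat with Slc18a3, Slc5a7, Prph and Nefh and for Nefm with Nefl, 8.33e-05 for Nefh with Nefm, 0.00123 for Chat with Ache and 0.0151 for Chat with Isl1.

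The relations were also measured without the 2 animals farthest from the median of the first gene, on log2 values with group means subtracted. For Chat these were A10-1 at 4 dpi and A3-4 at 42 dpi. Without them, r was 0.963 with Slc18a3, 0.963 with Slc5a7, 0.937 with Prph, 0.899 with Nefh, 0.663 with Ache and 0.455 with Isl1. For Nefh with Nefm and Nefm with Nefl, r was 0.798 and 0.770 without the 2 animals picked in the same way. Within the units of the labels, with the mean of each of the 12 unit and group combinations subtracted, r of Chat was 0.979 with Slc18a3, 0.982 with Slc5a7, 0.969 with Prph, 0.936 with Nefh, 0.767 with Ache and 0.600 with Isl1.

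Chat did not follow the mean log2 level of the 9 dorsal horn neuron genes in the table, with r of -0.324 (rho -0.320, permutation p = 0.129, adjusted p = 0.144, and -0.231 without the 2 animals), nor 18S ribosomal RNA, with r of 0.0876 (rho 0.215, permutation p = 0.687, adjusted p = 0.687, and 0.120 without the 2 animals). Neither passed the test. Taken singly, with no test, the dorsal horn genes had r to Chat from -0.656 to 0.472, with a median of -0.124. Of them 8 were below 0, against 9212 of the 16994 genes other than Chat. Over all 36 pairs of the 9 cholinergic and motor neuron genes, given with no test, r ranged from 0.232 to 0.985 with a median of 0.832. The 6 pairs of Chat, Slc18a3, Slc5a7 and Prph ranged from 0.955 to 0.985, the 12 pairs of these with a neurofilament gene from 0.802 to 0.932, and the 8 pairs that include Ache from 0.232 to 0.703.

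**Figure D2:**
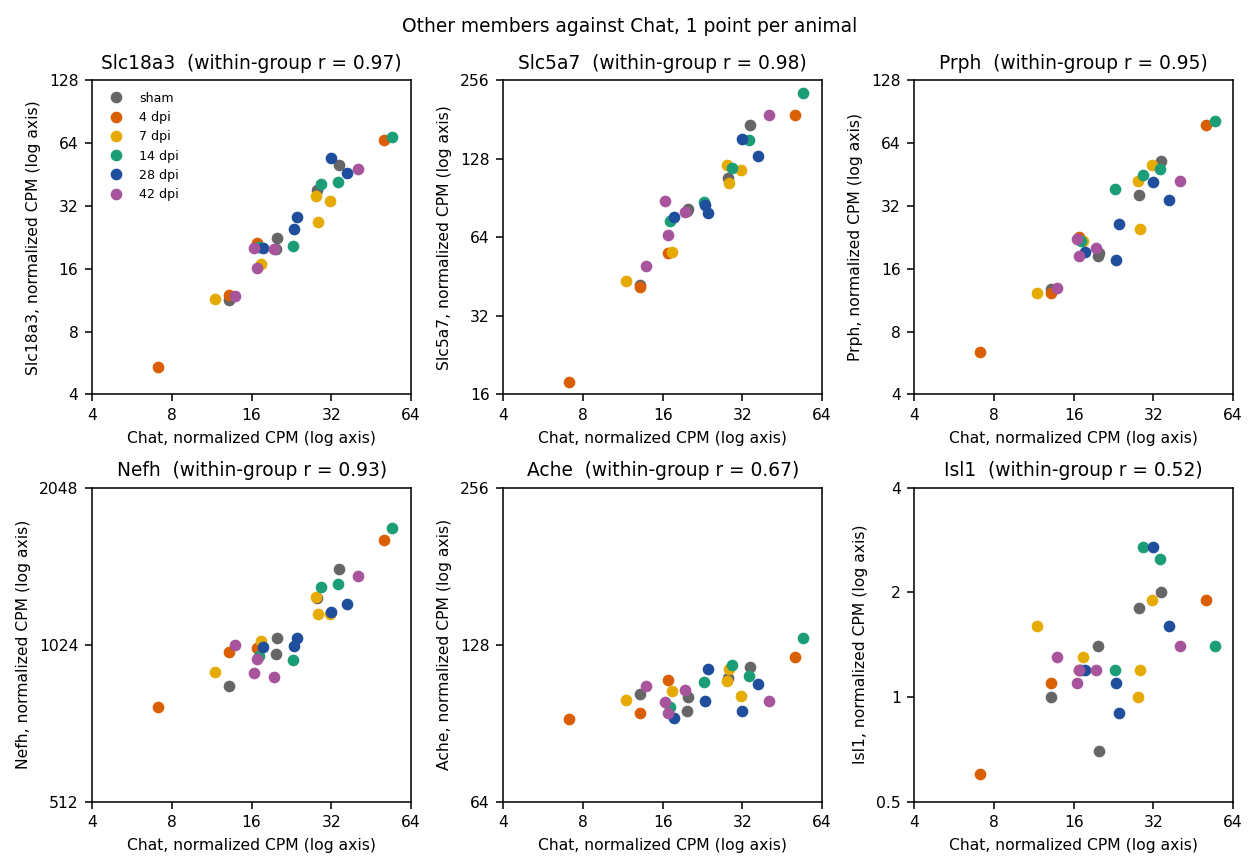
Slc18a3, Slc5a7, Prph, Nefh, Ache and Isl1 on the y axes against Chat on the x axes, all in normalized CPM on log axes, with 1 point per animal colored by group. The points of Slc18a3, Slc5a7, Prph and Nefh line up with r of 0.974, 0.976, 0.955 and 0.932 after subtracting group means, while Ache is nearly flat and Isl1 scatters.

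For Slc18a3, Slc5a7 and Prph, whose slopes on Chat were 1.26, 1.16 and 1.21, the ratio to Chat within an animal spanned less than the level did. For the other 5 members it spanned more. The ratio of Slc18a3 to Chat was 1.14 ± 0.209 (SD, n = 29) and spanned 2.23-fold, from 0.761 to 1.7. The ratio of Slc5a7 to Chat was 3.93 ± 0.612 and spanned 2.13-fold, and that of Prph to Chat was 1.2 ± 0.262 and spanned 2.21-fold. The ratios of Nefh, Nefm, Nefl, Ache and Isl1 to Chat spanned 3.48-, 3.74-, 4.41-, 5.41- and 5.36-fold, against 2.2, 2.35, 2.15, 1.43 and 4.5 for their levels. At a given Chat level, the part of the within-group variance left was 5.10% for Slc18a3, 4.76% for Slc5a7, 8.86% for Prph, 13.1% for Nefh, 22.8% for Nefl, 35.6% for Nefm, 54.8% for Ache and 72.6% for Isl1.

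Other motor neuron genes lay on the same axis. Of 18 further genes known from motor neurons, 9 had an r to Chat above 0.8 and 13 above 0.5, against 126 (0.741%) and 769 (4.53%) of the 16994 genes other than Chat, whose median r was -0.0281. The highest were Chodl (chondrolectin, a marker of fast motor neurons) at 0.953, with values from 2.2 to 68.2 normalized CPM, the VIP receptor Vipr2 at 0.929 and the GDNF receptor genes Gfra1 at 0.905 and Ret at 0.904. The motor neuron transcription factor genes Isl2 (0.904) and Mnx1 (0.865), the fast motor neuron gene Mmp9 (0.903) and the CGRP genes Calca and Calcb (0.893 each) followed. Esrrb (0.390), Lhx3 (0.278), Esrrg (0.0395) and Ngfr (-0.128) did not follow Chat closely.

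Among genes of acetylcholine handling, Slc10a4, a transporter of cholinergic and monoaminergic synaptic vesicles, had an r of 0.965, while the choline transporter Slc44a1 had 0.272. Of the 13 receptor and receptor-associated genes 1 was above 0.5, the muscarinic receptor gene Chrm2 at 0.791, and the lowest was the nicotinic subunit gene Chrna4 at -0.698. The 10 pan-neuronal genes had a median r of -0.192, with a range from -0.723 to 0.396. The 11 further genes of the axonal cytoskeleton and transport had a median of 0.221 and ranged from -0.698 to 0.785, with 4 above 0.5. The medians were 0.417 for 6 oligodendrocyte, 0.162 for 5 astrocyte, 0.0637 for 5 microglia, 0.180 for 4 endothelial and 0.358 for 5 fibroblast and meningeal genes. These are values across genes in the same animals, given as a description.

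Of the genes most like Chat that are not members, 4 were Fgf1 (a fibroblast growth factor) with r of 0.973, Acly (ATP citrate lyase, which makes acetyl-CoA in the cytosol) with 0.973, Ankrd6 with 0.969 and Kcnj14 (an inward rectifier potassium channel) with 0.969. Without animals A10-1 and A3-4 they were at 0.958, 0.958, 0.956 and 0.957. Slc5a7 ranked 2, Slc18a3 3, Prph 13, Nefh 29, Nefl 74, Nefm 124, Ache 278 and Isl1 664 of 16994 genes.

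**Figure D3:**
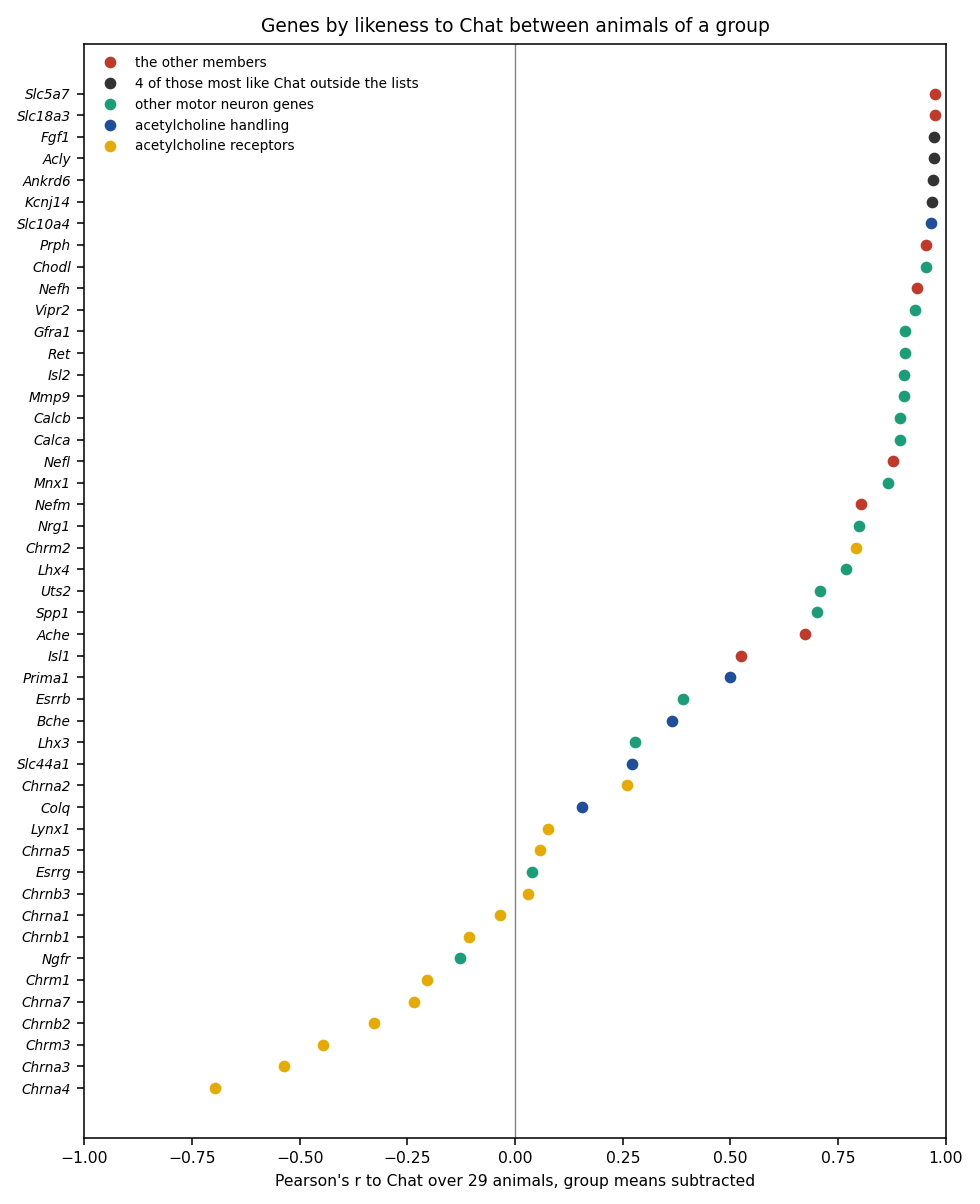
Pearson's r to Chat over 29 animals, with group means subtracted, on the x axis for the other members, 4 of the genes most like Chat, and genes of the acetylcholine and other motor neuron lists, 1 point per gene. Most motor neuron genes lie above 0.5. Of the 13 receptor genes 8 lie below 0, near the share over all genes (9212 of 16994).

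Against the sham group, 0 of the 9 genes passed the limma test at any time point (moderated test over all 6 groups, call at an adjusted p under 0.05). At an unadjusted p under 0.05 the count was also 0 at each time point, against 5.14%, 5.84%, 11.6%, 38.5% and 14.8% of all genes from the first to the last. The background of called genes in the whole table was 0.106% for 4 dpi, 0.0294% for 7 dpi, 0.00588% for 14 dpi, 24.9% for 28 dpi and 0.0235% for 42 dpi, so only at 28 dpi was there much to compare with. Likewise 0 of the 9 genes had values without overlap between stroke and sham animals, against 1.70%, 0.971%, 2.07%, 9.90% and 3.31% of all genes in the same order of time. These comparisons share the same 5 sham animals. In the limma F-test over the 6 groups 0 of 9 passed, with the smallest value for Nefl (adjusted p = 0.131), against 31.6% of all genes. Without animal A10-1 the F-test called Slc5a7 (limma adjusted p = 0.0302) and Nefl (0.0257).

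The 9 genes varied together between the same animals, with a median r of 0.832 over the 36 pairs, so the counts of signs below are not of independent genes. At 4 dpi, 8 of the 9 log2 fold changes were below 0, with a median of -0.15 against 0.0057 over all genes. Without A10-4 this median was 0.043 and without A10-1 -0.33. Slc5a7 had the lowest value, at -0.72 ± 0.463 (SE, limma adjusted p = 1.0), with means of 75.8 ± 76.6 (SD, n = 4) at 4 dpi and 97.2 ± 48.6 (n = 5) in the sham group. Chat was at -0.36 ± 0.390, with a 95% interval from 0.448- to 1.35-fold, and Slc18a3 at -0.50 ± 0.503. The direction of both rested on animal A10-4, without which Chat was at 0.03 and Slc18a3 at 0.04, while without A10-1 they were at -0.88 and -1.13. Slc5a7 was at -0.21 without A10-4, -1.33 without A10-1 and -0.48 without sham animal A12-1. At 7 dpi the median of the 9 was 0.0090, and it ran from -0.081 without sham animal A12-3 to 0.13 without sham animal A12-1.

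At 14 dpi all 9 log2 fold changes were above 0, with a median of 0.34 against -0.0085 over all genes, although none passed the test. Without sham animal A12-3 the median was 0.20. With a common sum for each animal, 8 of the 9 fell below 0, but the median of all genes then moved to -0.48 and all 9 stayed above it. Prph had the largest difference, 0.81 ± 0.466 (SE, limma adjusted p = 0.490), with means of 47.0 ± 21.8 (SD, n = 5) and 27.8 ± 16.5 in the sham group. Chat differed by 0.41 ± 0.367, Slc18a3 by 0.45 ± 0.475, Slc5a7 by 0.47 ± 0.437 and Isl1 by 0.28 ± 0.233. The neurofilament chains differed by 0.34 ± 0.181 (Nefm), 0.23 ± 0.150 (Nefl) and 0.17 ± 0.166 (Nefh), and Ache by 0.10 ± 0.0769. Animal A5-4 was highest of its group in Chat and in 7 of the other 8 genes. Without it the differences were 0.19 for Chat, 0.21 for Slc18a3 and 0.24 for Slc5a7, and without sham animal A12-3, the lowest in these 3 genes, 0.23, 0.17 and 0.20. With any 1 animal left out, those of Ache ranged from 0.045 to 0.16, of Isl1 from 0.14 to 0.40, of Nefh from 0.046 to 0.26 and of Nefl from 0.12 to 0.33.

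At 28 dpi 6 of the 9 were above sham and 3 below, with a median of 0.11 that was -0.052 without sham animal A12-3 and 0.39 without sham animal A12-1. Chat differed by 0.23 ± 0.367 (95% interval from 0.699- to 1.98-fold) and Slc18a3 by 0.36 ± 0.475. Without sham animal A12-3 they were at 0.053 and 0.083, without sham animal A12-1 at 0.39 and 0.61, and without 28 dpi animal A4-3 at 0.11 and 0.24. Nefm differed by 0.29 ± 0.181 (limma adjusted p = 0.240) and Nefl, in the other direction, by -0.26 ± 0.150 (limma adjusted p = 0.200). Nefm was at 0.19 without sham animal A11-1 and Nefl at -0.16 without sham animal A12-1. At 42 dpi 8 of the 9 were below sham, with a median of -0.11 that was 0.013 without sham animal A12-1 and -0.22 without A3-4. Chat was at -0.14 ± 0.367 and Slc18a3 at -0.27 ± 0.475, and without animal A3-4, whose Chat of 40.3 stood apart from 13.8 to 19.4 in the others, they were at -0.40 and -0.57, while without sham animal A12-1 they were at 0.013 and -0.025. The intervals show what these groups could not resolve. For Slc18a3 at 28 dpi the 95% interval ran from 0.656- to 2.52-fold, while for Ache it ran from 0.869- to 1.08-fold.

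**Figure D4:**
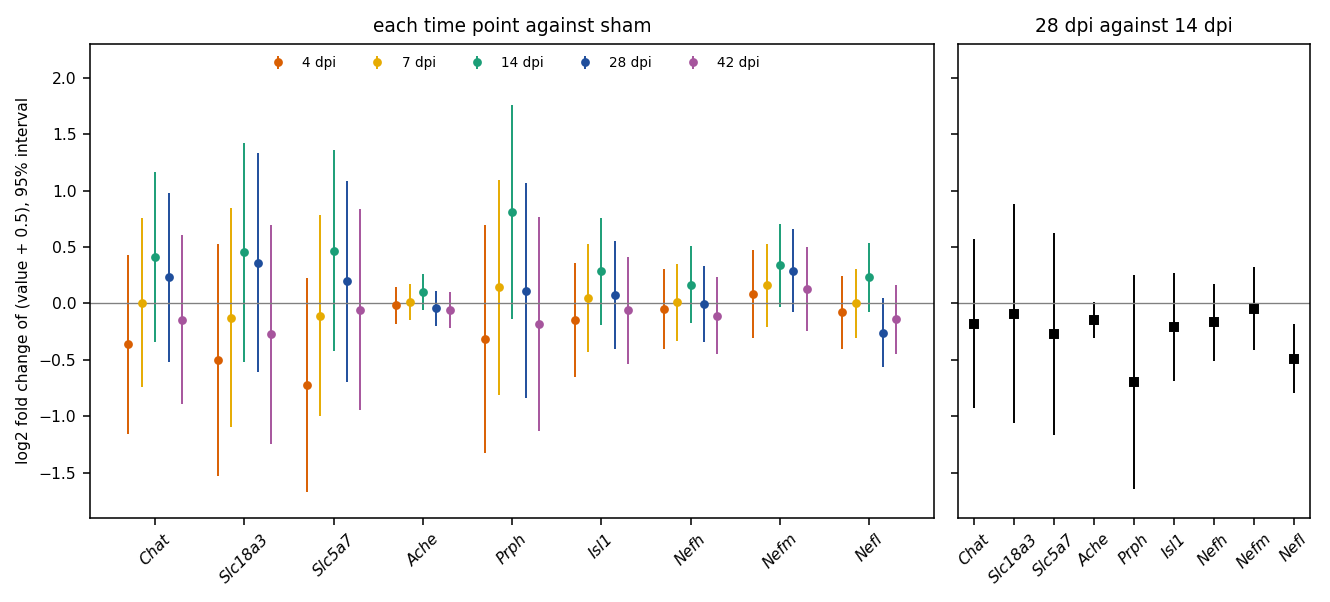
Log2 fold changes of the 9 genes with 95% intervals from the limma fit, at each time point against sham on the left and at 28 dpi against 14 dpi on the right. Every interval against sham includes 0, those of Chat, Slc18a3, Slc5a7 and Prph are wide, and in the right panel only the interval of Nefl lies wholly below 0.

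Between time points, 1 of the 9 genes passed the test, Nefl, which fell from 14 dpi to 28 dpi. Nefl was at 1635.8, 1856.3, 2547.7, 2145.8 and 1700 in the sham animals. The 14 dpi animals had 1858.8, 2437.5, 3060.5, 1975.2 and 2286.4, and the 28 dpi animals 1610.3, 1687.3, 1674.2, 1666.5 and 1509.4. All 5 animals at 28 dpi were below all 5 at 14 dpi. The log2 fold change was -0.49 ± 0.150 (SE, limma adjusted p = 0.00944), a 95% interval from 0.576- to 0.880-fold. In this comparison 43.0% of all genes were called and 22.0% had no overlap, so 1 of 9 genes is below the background. The log2 fold changes of the other 8 were also below 0, from -0.70 ± 0.466 for Prph to -0.05 ± 0.181 for Nefm, with a median over the 9 of -0.18 against 0.016 over all genes. They were -0.18 for Chat, -0.09 for Slc18a3, -0.27 for Slc5a7, -0.15 for Ache, -0.21 for Isl1 and -0.17 for Nefh. With 1 animal left out, Slc5a7 ranged from -0.45 (A5-1) to -0.043 (A5-4), Isl1 from -0.39 (A3-3) to -0.075 (A5-3), Nefh from -0.26 (A6-2) to -0.049 (A5-4) and Ache from -0.20 (A5-1) to -0.090 (A5-4), and the median of the 9 from -0.30 (A5-1) to -0.049 (A5-4). Without A5-1 Ache was called too (limma adjusted p = 0.0393), and relative to the pan-neuronal genes it was at -0.0040. Slc18a3 and Nefm were above 0 when set relative to the pan-neuronal genes, and without 14 dpi animal A5-4 Chat was at 0.043, Slc18a3 at 0.15 and Nefm at 0.039. Genes of other lists were called in the same comparison. Of the axon cytoskeleton genes 4 of 11 rose and 3 fell, of the receptor genes 4 of 13 rose and 1 fell, of the other motor neuron genes 2 of 18 rose and 1 fell, and of the acetylcholine handling genes 0 of 5 passed. Of the dorsal horn neuron genes 5 of 9 fell, of the oligodendrocyte genes 5 of 6, of the pan-neuronal genes 5 of 10 (1 rose) and of the microglia genes 2 of 5. Of the astrocyte, endothelial and fibroblast and meningeal genes 1 each rose. The summed dorsal horn level was 167 to 199.5 at 14 dpi and 99.4 to 152 at 28 dpi, and the summed oligodendrocyte level 6270.5 to 7781 and 4476 to 6587. Their part in the fall of Nefl was not tested. From 28 to 42 dpi 0 of 9 genes passed, against 1.94% of all genes, and 8 of 9 differences were below 0.

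The fall of Nefl was not past the threshold under 2 of the scalings, relative to the pan-neuronal genes (-0.35, limma adjusted p = 0.0922) and with the same sum in each animal (-0.76, adjusted p = 0.0787). Relative to the median of all genes under these scalings Nefl was at -0.51 and -0.53. With a correction for the length and GC content of transcripts, added after the data were seen, it was at -0.52 (limma adjusted p = 0.00693), and Ache was then called too (-0.20, adjusted p = 0.0221), against 38.9% of all genes. At 28 dpi Nefl spanned 1.12-fold between animals and Chat 2.07-fold. With the Chat level of each animal as a covariate, also added after the data were seen, Nefl was at -0.43 ± 0.0851 (limma adjusted p = 0.000244) and Prph at -0.48 ± 0.146 (adjusted p = 0.00892), 2 of the 8 members other than Chat, against 43.5% of all genes. Against sham in the same fit, Nefl at 28 dpi was at -0.34 ± 0.0854 (limma adjusted p = 0.00537), 1 of these 8, against 27.5% of all genes.

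The 3 neurofilament chains shifted in proportion at 28 dpi, which is given as a description because it was seen in the data first. The ratio of Nefl to Nefh within an animal was 1.67 to 1.99 in the sham group, 1.60 to 1.83 in the 4 dpi, 1.55 to 1.91 in the 7 dpi, 1.71 to 2.06 in the 14 dpi, 1.36 to 1.59 in the 28 dpi and 1.56 to 1.85 in the 42 dpi animals. The 28 dpi animals lay below all sham, 4 dpi and 14 dpi animals and overlapped those at 7 and 42 dpi. The ratio of Nefm to Nefl was 0.246 to 0.296 in the sham group and 0.356 to 0.488 at 28 dpi, with no overlap. It was 0.272 to 0.338 in the 4 dpi, 0.274 to 0.369 in the 7 dpi, 0.246 to 0.368 in the 14 dpi and 0.287 to 0.386 in the 42 dpi animals, of which the last 3 groups overlapped the 28 dpi animals. The second ratio is the one touched by the shared exonic sequence. The longest transcript of Nefl has 3380 bases and 48.9% G and C, that of Nefh 3994 bases and 58.4% and that of Nefm 3680 bases and 57.8%.

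**Figure D5:**
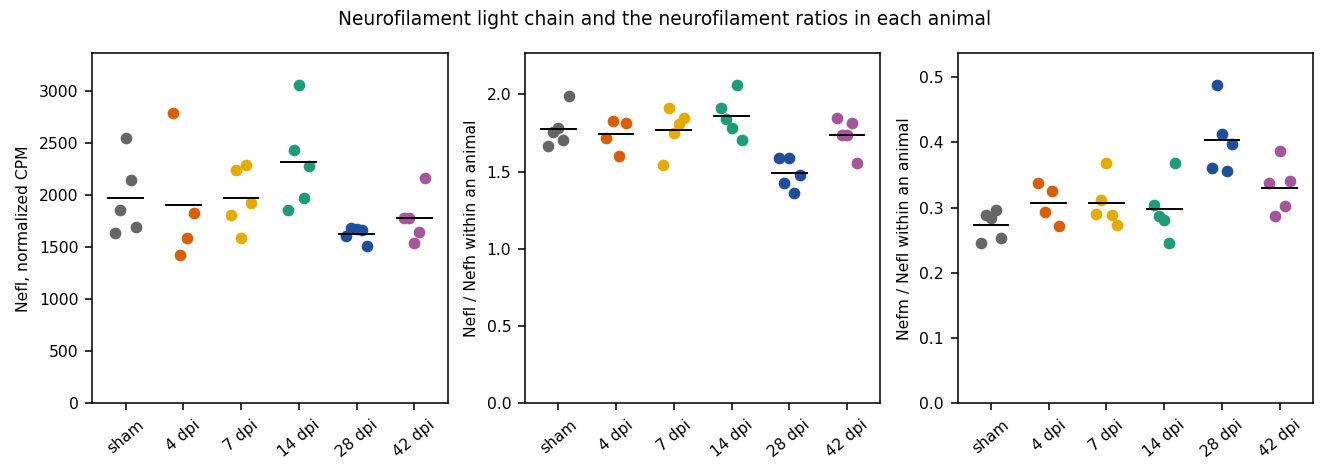
Nefl in normalized CPM, the ratio of Nefl to Nefh and the ratio of Nefm to Nefl on the y axes by group on the x axis, 1 point per animal and a bar at the arithmetic mean. At 28 dpi Nefl lies between 1509.4 and 1687.3, the first ratio is lowest (1.36 to 1.59) and the second highest (0.356 to 0.488).

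Of the related genes, those of acetylcholine handling did not pass the limma test against sham at any time point (0 of 5). The 2 with the highest mean were Slc44a1, with medians of 97.7 in sham and 88.2 at 28 dpi, and Slc10a4, with medians of 9.9 and 13. Among the 13 receptor and receptor-associated genes, 2 passed, both at 28 dpi. The nicotinic subunit gene Chrnb3 rose by 0.73 ± 0.208 (SE, limma adjusted p = 0.0130) from a median of 0.3 to 1.1, close to the rounding step. Over the alternatives other than leaving out an animal, its difference ran from 0.30 to 1.22. Lynx1, which codes for a membrane-anchored modulator of nicotinic receptors, fell from a median of 335.9 to 309, a log2 fold change of -0.16 (adjusted p = 0.0407), and its groups did not overlap. Chrm2, with the second highest mean in the list, had medians of 95 and 99.9 and did not pass the test.

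Of the 18 other motor neuron genes, 2 rose at 28 dpi and 16 did not pass the test. They were Esrrg, an orphan nuclear receptor of slow and gamma motor neurons, with a median of 61.8 in sham and 76.3 at 28 dpi (0.28, limma adjusted p = 0.0123), and Nrg1 (neuregulin 1), with 79.9 and 95.9 (0.39, adjusted p = 0.0381). The most abundant of the list, Spp1 (osteopontin) and Ret, had medians of 101.1 and 86.1 (Spp1) and of 87.6 and 113.9 (Ret) in sham and at 28 dpi, and did not pass. The median log2 fold change of the 18 genes was 0.22 at 28 dpi, against -0.0048 over all genes.

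Of 11 further genes of the axonal cytoskeleton and transport, 3 rose and 1 fell at 28 dpi. The microtubule-associated protein genes Map1a and Map1b rose from medians of 1415 to 1956 (0.60, limma adjusted p = 0.00519) and of 2603 to 3523 (0.38, adjusted p = 0.0279), and the dynein heavy chain gene Dync1h1 rose from 1347 to 1603 (0.28, adjusted p = 0.0308). Stmn3, a stathmin that destabilizes microtubules, fell from 215.9 to 140.2 (-0.43, adjusted p = 0.0158). Of 10 pan-neuronal genes, Syn1 (synapsin I) rose from a median of 69.1 to 100.4 (0.63, limma adjusted p = 0.00321). Snap25, a SNARE protein of synaptic vesicle fusion, fell from 1589 to 1301 (-0.30, adjusted p = 0.0160), the neuronal RNA-binding protein gene Elavl4 from 72.1 to 61.9 (-0.18, adjusted p = 0.0238) and the ubiquitin hydrolase gene Uchl1 from 252.9 to 182.5 (-0.30, adjusted p = 0.0274). Nsf, the second most abundant of this list, had medians of 648.6 and 614.9 and did not pass.

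All 12 of these calls were at 28 dpi, where 24.9% of all genes were called, and with 18S ribosomal RNA as a covariate 0 of the 12 and 0 of all genes passed there. Chrnb3, Esrrg, Map1a and Syn1 passed whichever animal was left out. The other 8 all missed the threshold without sham animal A12-1 (limma adjusted p from 0.0647 to 0.112), the sham animal with the highest level of all 9 members, and 7 of them also without 28 dpi animal A3-3. With the length and GC correction Map1b was at 0.13 (limma adjusted p = 0.388), Dync1h1 at -0.011 (0.923) and Nrg1 at 0.32 (0.0754). With quantile normalization Map1b was at 0.18 (limma adjusted p = 0.405) and Elavl4 at -0.16 (0.0567). Lynx1 (limma adjusted p = 0.116) and Elavl4 (0.0685) missed the threshold with median centring, and Lynx1 (0.0534) and Nrg1 (0.0566) with no trend. Relative to the pan-neuronal genes Lynx1 was at -0.094 (limma adjusted p = 0.364), Elavl4 at -0.11 (0.223) and Uchl1 at -0.23 (0.0915). In a fit of only the sham and 28 dpi animals Lynx1, Stmn3, Map1b, Dync1h1, Snap25, Elavl4 and Uchl1 missed the threshold (limma adjusted p from 0.0784 to 0.125). With the same sum in each animal, Esrrg, Nrg1, Map1a, Map1b, Dync1h1 and Syn1 turned to the opposite sign and Chrnb3 was at 0.30 (limma adjusted p = 0.328), while the median of all genes moved to -0.73. Of the marker lists of other cells, 3 of 9 dorsal horn neuron genes and 4 of 6 oligodendrocyte genes fell at 28 dpi against sham. Of 5 astrocyte genes 1 rose and 2 fell, and of 5 microglia, 4 endothelial and 5 fibroblast and meningeal genes 1 each rose. The summed oligodendrocyte level was 6223 to 9261 in sham and 4476 to 6587 at 28 dpi. The summed level of the 9 dorsal horn genes was 129 to 164 in sham and 99.4 to 152 at 28 dpi. Their part in the values of the 9 members was not tested.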

How the data were processed

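RNA of the intermediate laminae at C5/C6 of 29 mice was ribo-depleted and sequenced single end. The deposited score values were made by the authors, who quantified reads on the mm10 transcriptome with SALMON, summarised them per gene with Tximport and normalized them with edgeR (submitters' notes: R 3.4.1, edgeR 3.14.0). They are normalized CPM rounded to 0.1, not counts, and no count test was used. The table maps every column to a labelled animal (0 unmapped), and 1 animal labelled 4 dpi (A9-3) had no column. The p values measure the spread between animals. The main fit treats animals of the same unit of the labels as independent. Apart from A3, each unit belongs to a single group, so differences between groups are also differences between units.

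Values were analysed as log2(value + 0.5) with limma 3.58.1 (R 4.3.3, mean-variance trend, 1 fit over 6 groups) and adjusted over 16995 genes (Benjamini-Hochberg). A call is an adjusted p under 0.05. Correlations used 100000 permutations within groups (Python 3.11.15, numpy 2.4.6). Alternatives were pseudocounts of 1 and 0.05, quantile normalization, median centring, a common sum, pan-neuronal scaling, a mean of at least 1, no trend, 2-group fits, 18S RNA as a covariate, unit as a random block and leaving out each animal. The members, gene lists and tests were chosen with earlier results of these data known. Named from the lists are genes called against sham and the 2 of highest mean per list, and for likeness the 5 genes closest to Chat. Some list and likeness genes are not reported here. Coordinates are those of the deposited table (mm10). Start and end were as in GENCODE M21 for 7 of 9 genes. Promoter sequences of Nefh, Nefm and Nefl were not used here.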

Additional observations from a re-analysis of the deposited data

Results flagged for a closer look

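At 42 dpi, 1 animal, A3-4, stood far above the other 4 in 4 of the genes. Its values were 40.3 for Chat (others 13.8 to 19.4), 48.2 for Slc18a3 (others 11.9 to 20.1), 187.6 for Slc5a7 (others 49.6 to 88.2) and 1389 for Nefh (others 887.5 to 1023). In each case the gap to the nearest animal was over 0.720 of the range of the group (Dixon's test). It is the only 42 dpi animal from unit A3, whose other animals belong to the 28 dpi group, so unit and animal cannot be told apart here. In all, 54 sets of values (9 genes in 6 groups) were tested, and chance flags about 1 in 20 groups. The 4 genes are not independent, since they were measured in the same animals.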

How the results depend on the processing

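No paired analysis was possible because no replicate number is shared between groups. The count of members called was 0 at 4, 7, 14 and 42 dpi against sham and at 42 against 28 dpi under every alternative run. With a common sum, 3 were called at 28 dpi (Ache, Nefh, Nefl), against 66.2% of all genes, 4 in the F-test, against 66.5%, and 0 at 28 against 14 dpi, against 4.21%, and the medians were -0.59 at 28 dpi and -0.66 at 42 dpi. Pan-neuronal scaling gave 0 calls at 28 against 14 dpi, against 42.1% of all genes. Of the 2 corrections chosen after seeing the data, the Chat covariate gave 1 call at 28 dpi, 2 at 28 against 14 dpi and 1 in the F-test (33.4% of all genes), and the length and GC correction 2 at 28 against 14 dpi. Leaving out 1 animal gave 1 to 2 calls at 28 against 14 dpi (Ache joined Nefl without A5-1) and 0 to 2 in the F-test, and Nefl at 28 against 14 dpi ranged from -0.57 to -0.39 (limma adjusted p from 0.00304 to 0.0443). Quantile normalization gave -0.32 for Nefl. The causes were not tested.

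Signs reversed with a common sum at 14 dpi for Chat (-0.10), Slc18a3 (-0.063), Slc5a7 (-0.058), Ache (-0.42), Isl1 (-0.12), Nefh (-0.36), Nefm (-0.19) and Nefl (-0.30), and at 28 dpi for Chat (-0.54), Slc18a3 (-0.41), Nefm (-0.50), Esrrg (-0.50), Nrg1 (-0.39), Map1a (-0.19), Map1b (-0.41), Dync1h1 (-0.51) and Syn1 (-0.16). The length and GC correction gave -0.011 for Dync1h1. With the Chat covariate Nefh was at -0.0015, Slc18a3 at -0.066 and Slc5a7 at -0.013 at 14 dpi, and Slc18a3 was at 0.13 and Nefm at 0.021 at 28 against 14 dpi. Pan-neuronal scaling gave 0.052 for Slc18a3 and 0.095 for Nefm at 28 against 14 dpi. Leaving out 1 animal, Chat ranged from -0.88 to 0.033 and Slc18a3 from -1.13 to 0.039 at 4 dpi, Chat from -0.40 to 0.013 at 42 dpi, and at 28 against 14 dpi Chat from -0.37 to 0.043, Slc18a3 from -0.28 to 0.15 and Nefm from -0.17 to 0.039.

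Counts over all genes moved more: 4230 genes at 28 dpi became 11251 (common sum), 2202 (2-group fit) and 0 (18S RNA covariate), and 2198 to 5030 with 1 animal left out, the lowest being 2198 without sham A12-1 and 2237 without 28 dpi A3-3. At 28 against 14 dpi 7301 became 716 (common sum). At 4, 7, 14 and 42 dpi 18, 5, 1 and 4 became at most 41, 20, 33 and 140, and at 42 against 28 dpi 330 ranged from 1 to 1278. The correlations kept their sign and side of the threshold with rho and without 2 animals. Depth is unknown, so counting error is not covered.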
